A study of Caenorhabditis elegans with 3 samples.

Results

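The reporter gene *gfp* of the plasmid pTG96 was examined through the junctions found inside it, that is, places where a sequenced read left the plasmid sequence at one base and went on at a distant one. A junction was taken as a member when both of its edges lay in the reading frame of *gfp*, from base 7611 of the plasmid, where a nuclear localisation signal (NLS) begins, to base 8522, the end of the stop codon. Of 1231 junctions listed over the whole plasmid in 3 libraries, 127 met this rule. They stood for 118 different joins, of which 109 were listed in 1 library, 9 in 2 libraries and 0 in all 3. The overlap of the lists over the whole plasmid is not given here, so these counts describe the members only.

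The worms were *Caenorhabditis elegans* of strain HC566, which carries pTG96 as an integrated, repetitive array with *sur-5* fused to *gfp*. They were grown as a mixed-stage liquid culture at 20 °C on *E. coli* OP50, from which worms were separated by floating on sucrose. Total DNA went into 1 library read from both ends (paired-end DNA) and 1 read from a single end (single-read DNA), and RNA with a poly-A tail into 1 more, all from the same strain and with no strain lacking the array among them. With 1 library per group, every comparison is between libraries, and the intervals given are exact 95% intervals that cover counting error only.

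GFP, the green fluorescent protein of a jellyfish, glows once a short stretch inside its folded barrel has formed the chromophore, so a transgene that makes it marks the cells in which it is expressed. Reporter genes for worms were commonly built with short synthetic introns, since introns raise expression in many animals, and an NLS gathers the protein in nuclei, where it is easy to see. Worm introns are typically short and rich in A and T. A multicopy array holds many copies of the same sequence close together, and in such arrays repeated stretches can recombine with each other.

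The frame codes for 252 amino acids, 14 residues of the NLS leader followed by the 238 residues of GFP, in 759 coding bases. It is broken by 3 introns of 51 bp, at 7824 to 7874, 8029 to 8079 and 8244 to 8294 of pTG96, which take up 16.8% of the span. The 4 exons are 213, 154, 164 and 228 bp long, and exon 2 holds the codons of the chromophore. The introns had a GC content of 23.5%, against 39.3% for the exons. All of them share their first 13 bases, their last 14 bases and an inner run of 11 bases, so that 38 of 51 positions are identical in the 3 introns. Pairs of these introns are identical at 42 positions (introns 1 and 2), 41 (introns 1 and 3) and 40 (introns 2 and 3), and they lie 205, 420 and 215 bp apart in that order.

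The lists differed in what they held for *gfp*. In paired-end DNA, 49 of 809 junctions lay in *gfp*, or 6.06% (exact binomial interval 4.51 to 7.93), in single-read DNA 15 of 50, or 30.0% (17.9 to 44.6), and in RNA 63 of 372, or 16.9% (13.3 to 21.1). Their reads numbered 10272, 1111 and 109276, which were 12.3%, 14.7% and 32.1% of the junction reads of each library. The *gfp* span is 7.60% of the plasmid's length. That is not the share to expect by length under a rule on both edges, which was not worked out. Of the *gfp* members, paired-end DNA had 4 deletions and 45 inversions, single-read DNA 12 and 3, and RNA 51 deletion-like junctions and 12 inversions. A deletion-like junction skips bases within 1 copy of the plasmid and in RNA may be a splice. An inversion joins the plasmid to its opposite strand.

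**Figure D1:**
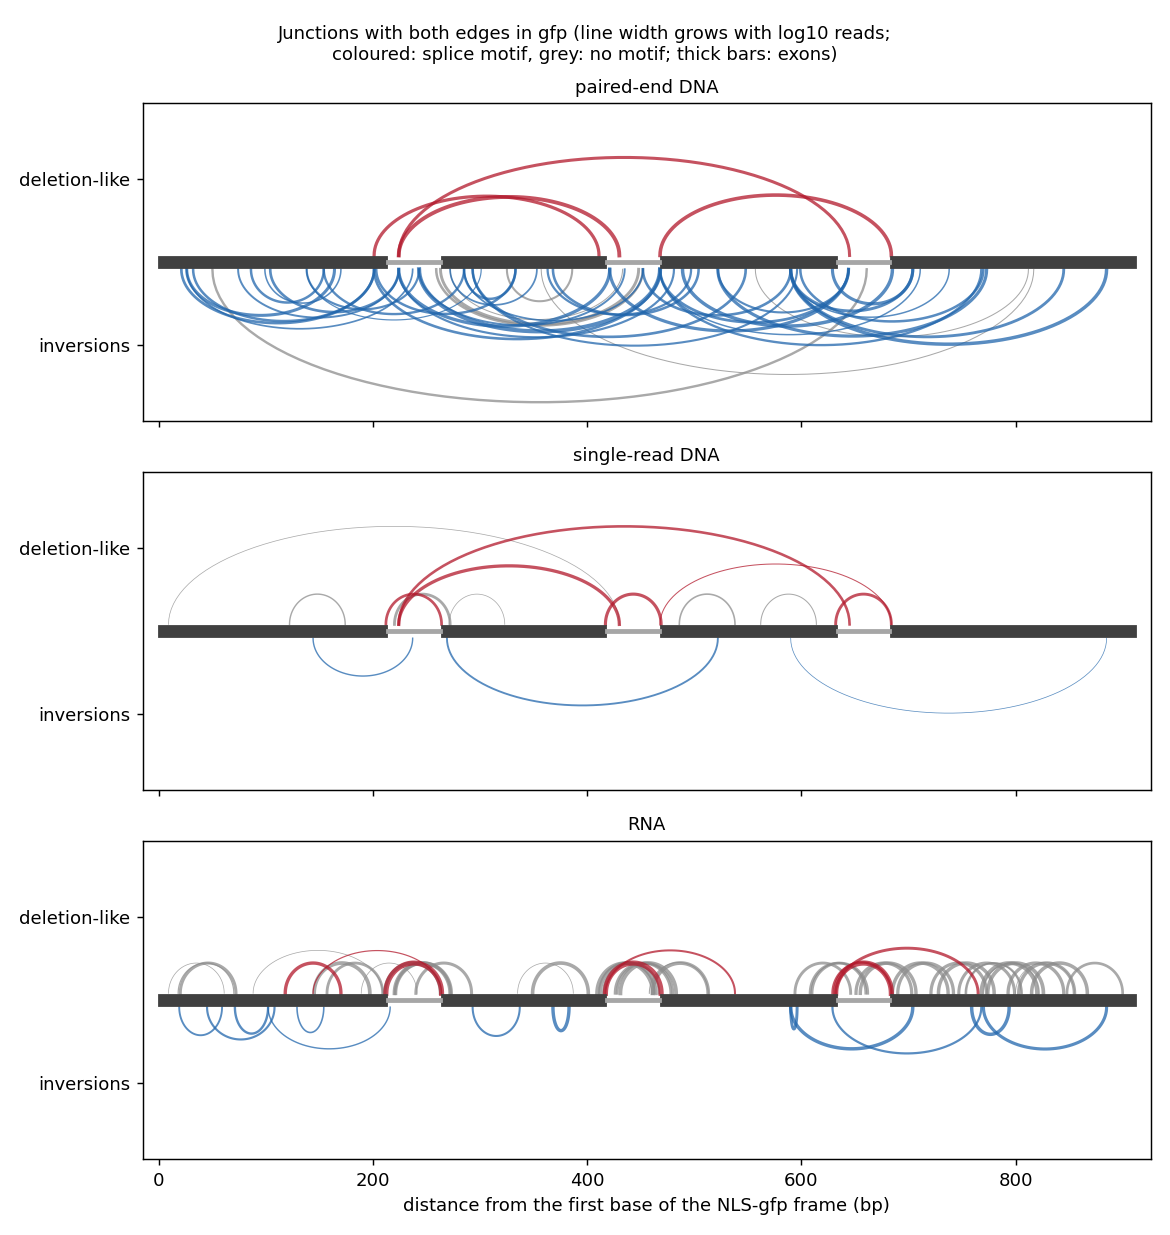
Arcs join the edges of each member along *gfp*, with distance from the first base of the frame in bp on the horizontal axis, deletion-like junctions above and inversions below the gene, coloured where the ends carry a splice motif and grey where they do not. In paired-end DNA 45 inversions hang below the gene and only 4 deletions rise above it, while the RNA panel is filled by short skips of 51 bp.

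RNA reads crossed the 3 introns in large numbers. Intron 1 was skipped by 25673 reads (exact Poisson interval 25360 to 25989), intron 2 by 30464 (30123 to 30808) and intron 3 by 34214 (33852 to 34579). Among these 3 introns the numbers thus rose from 5′ to 3′, with intervals that cover counting error only and do not overlap. The introns were defined by their RNA reads, at least 1000 each, so that they are spliced in RNA is not a result. Together they held 90351 reads, or 82.7% of the *gfp* junction reads in RNA (82.5 to 82.9).

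A second pair of 51 bp introns with the same ends lies outside the frame, and only one of them was skipped about as often. The copy at 8608, after the stop codon, had 28459 RNA reads, between introns 1 and 2 in number, and the copy at 11895, in the vector, had 262 (231 to 296). The longest aligned stretch to the left and to the right of the skip was at least 123 bases for each *gfp* intron, of at most 125 in the RNA list. So the reads at each intron began at more than 1 place.

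Skips of the same introns were also found in single-read DNA. Intron 1 had 102 reads (83.2 to 124), intron 2 had 263 (232 to 297) and intron 3 had 149 (126 to 175), and aligned stretches reached 94 to 99 bases on both sides. They were 46.3% of the *gfp* junction reads of that library (43.3 to 49.2). The order was not that of RNA. Intron 2 took 51.2% of the 3 introns' reads in single-read DNA (exact binomial interval 46.8 to 55.6) against 33.7% in RNA (33.4 to 34.0), and intron 3 took 29.0% (25.1 to 33.1) against 37.9% (37.6 to 38.2).

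The other introns with RNA reads did not share this. In single-read DNA the intron after the stop codon, with its 28459 RNA reads, had 0 reads, and so did the 8 *sur-5* introns, which had 11774 to 36209 RNA reads each. A count of 0 was taken to allow up to 3 reads for counting error, a fixed limit, where the exact Poisson interval runs to 3.69. In the authors' deposited table the 3 skips are given as deletions with 102, 241 and 121 reads in order along the gene. By the authors' deposited table they amount to 1.47%, 3.46% and 1.51% of the mean read coverage at their edges, which was 6961.5, 6960.5 and 7997.5. The source of these reads was not tested.

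In paired-end DNA none of the 3 introns had a read. The shortest skip anywhere in that list was 61 bp, longer than these introns, and whether a skip of 51 bp could have been listed there is not known. The shortest skips of the other lists were 51 bp in single-read DNA and 50 bp in RNA.

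**Figure D2:**
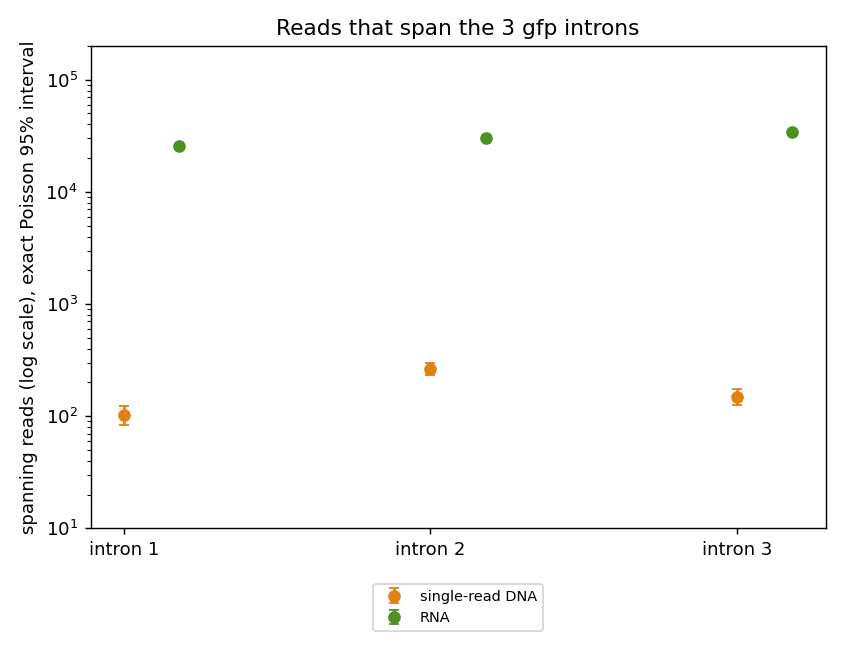
Points give the reads that span each *gfp* intron on a log scale, with exact Poisson intervals, for single-read DNA and RNA. RNA lies between 25673 and 34214 reads and single-read DNA between 102 and 263, with intron 2 highest in single-read DNA and intron 3 highest in RNA.

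Splicing of *gfp* at other sites was rare by reads. Of the reads at intron 1, 92.1% (exact binomial interval 91.8 to 92.4) were at the exact skip, 0.0108% (0.00222 to 0.0315) used one of its splice sites with another partner and 7.88% (7.57 to 8.20) lay at skips of the same length moved along by up to 20 bp. At intron 2 these shares were 90.9%, 0.0626% (0.0388 to 0.0957) and 9.08%. At intron 3 they were 98.5%, 0.584% (0.507 to 0.670) and 0.941%. Skips with a partner other than the intron's own were thus most frequent at intron 3. Of their 203 reads there, 166 were at 1 skip whose letters lie on the antisense strand, and the other 37 stand beside 21 at intron 2. That antisense skip counts as a motif junction in the shares that follow. The shares away from the exact skip depend on the counting, and those of both kinds together, 7.89%, 9.14% and 1.53%, were 4.28%, 4.80% and 0.849% with mirror images summed and 0.0117%, 0.0689% and 0.590% over junctions with a splice motif. At intron 1, 609 of the 2197 moved reads lay at a skip that gives the same sequence as the exact one.

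Only 4 RNA junctions used a single splice site of a *gfp* intron. The 5′ site (donor) of intron 3 was joined to 8376, inside exon 4, by 166 reads, which takes out 27 codons and keeps the frame, although the letters at its ends, AT and AC, lie on the antisense strand. The 3′ site (acceptor) of intron 3 was joined to a donor 3 bases upstream, at 8240, by 37 reads with GT-AG ends on the sense strand, and loses 1 codon. The donor of intron 2 went to an acceptor at 8149, in exon 3, in 21 reads, also with GT-AG ends, and loses 23 codons in frame. The acceptor of intron 1 was joined to 7755, in exon 1, by 3 reads. That skip takes 68 coding bases, which shifts the frame and leaves 72 codons before a stop.

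Skipping of a whole exon was not seen. The joins from intron 1 to intron 2 (7823 to 8080), from intron 1 to intron 3 (7823 to 8295) and from intron 2 to intron 3 (8028 to 8295) had 0 reads in all 3 libraries. In RNA, 3 reads, the number that 0 was taken to allow, are 0.00332% of the reads at the 3 introns. A transcript without exon 2 would lack the chromophore.

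Most of the other RNA skips had the intron's length but no splice motif. Of 51 RNA deletion-like members, 8 carried a motif and held 91035 reads, and 43 carried none and held 15981, or 14.9%. Of these 43, 40 skipped exactly 51 bp, and all 43 had the skipped length of some motif junction in the same list. They had 1 to 1352 reads each and were spread from 7620 to 8511. Of the 43, the first edge lay in exon 4 in 15 cases, with 6059 reads, and in exon 1 in 8 with 2019, and 23 lay wholly inside 1 exon.

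Most of these junctions were supported in another way than the introns. In 30 of the 43 the longest stretches left and right of the skip added up to no more than 125 bases, the longest single stretch of the list, which is what reads that all began at the same base would give. Among them were 16 with 100 or more reads. The skip from 8042 to 8094 had 1352 reads with stretches of 68 and 56 bases, and that from 8379 to 8431, in exon 4, had 1135 reads and the same sum of 124. Only 1 of the 43 was listed with its mirror image on the other strand of the reference, against 5 of the 8 with a motif. One motif junction was like them, the 51 bp skip from 7729 to 7781 in exon 1, with 457 reads and AT-AC ends, at a sum of 124 too.

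**Figure D3:**
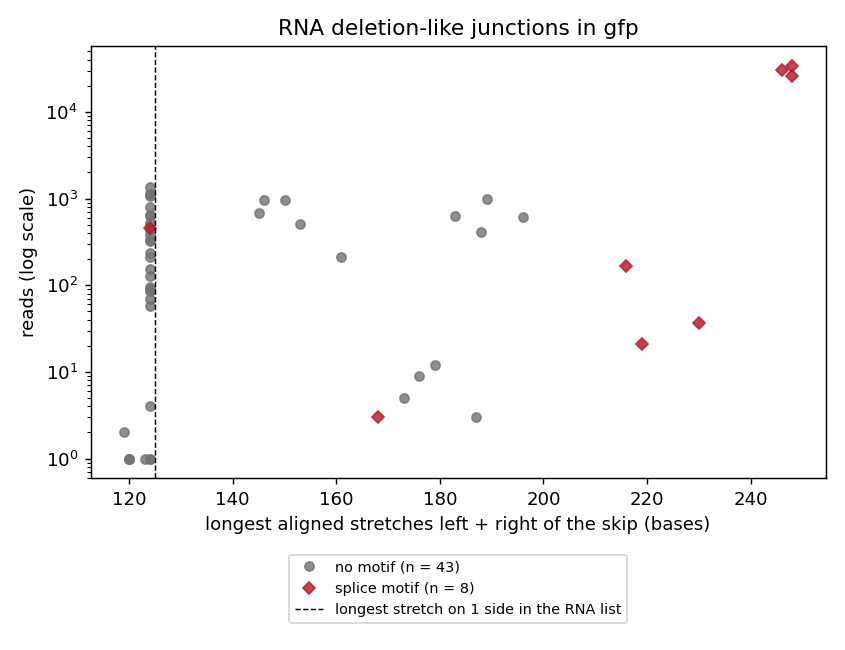
Each point is an RNA deletion-like junction in *gfp*, with the sum of its longest aligned stretches in bases on the horizontal axis, its reads on a log scale on the vertical axis, and a dashed line at 125 bases. The 3 introns stand at the upper right, and 30 of the 43 junctions without a motif stand at or left of the line with up to 1352 reads.

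Skips of 51 bp close to an intron gave sequences other than the spliced one. The skip from 7831 to 7883 lies 8 bp downstream of intron 1 and had 957 RNA reads, with stretches adding up to 146 bases. The 8 bases by which it is moved differ from those of the exact splice at 5 positions. It was also listed in single-read DNA, with 122 reads (101 to 146) beside the 102 of intron 1 itself. At intron 2 the moved skip with the most reads was 8042 to 8094, 14 bp downstream, with 10 of 14 bases different, and at intron 3 it was 8262 to 8314, 19 bp downstream, with 327 reads and 16 of 19 different. The skip from 7822 to 7874, with 609 RNA reads and named after its values were seen, is moved by 1 bp and gives the same sequence as intron 1, so these reads can be counted for either.

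Deletions between intron copies were found in both DNA libraries. A join was counted as one between copies when its edges lay in or within 20 bp of both and the bases skipped equalled the distance between them. The join of introns 1 and 2, from 7835 to 8041, had 1452 reads in paired-end DNA (exact Poisson interval 1378 to 1529) and 352 in single-read DNA (316 to 391). The join of introns 1 and 3, from 7835 to 8256, had 217 (189 to 248) and 83 (66.1 to 103). The join of introns 2 and 3, from 8079 to 8295, had 774 (720 to 831) in paired-end DNA but 2 (0.242 to 7.22) in single-read DNA. So each of the 3 possible pairs was joined in both libraries, and the pair with the fewest reads differed between them.

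These joins lay where the introns are identical, as their rule makes likely. It asks for a skip equal to the distance between copies that are alike at most positions. The join of introns 1 and 2 can be placed anywhere over 13 identical bases, the first 13 bases of the intron, without changing the sequence. That of introns 1 and 3 can slide over 14, also at the start of the intron, and that of introns 2 and 3 over 14, which are bases 38 to 51, the end of the intron. No listed join fell in the inner run of 11 identical bases. All listed joins had AT-AC or GT-AG ends, letters at which TopHat2, the program that made the lists, searches for junctions. The lists also hold junctions without these letters, and whether joins at other bases of the introns were all listed is not known. Of the 4 paired-end deletions in *gfp*, 3 were joins between introns, with 2443 of 2767 reads. The remaining one, from 7812 in exon 1 to 8022 in exon 2, had 324 reads and 6 identical bases.

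Each join between copies leaves 1 hybrid intron of 51 bp with the usual ends and removes the exons in between. The loss of exon 2, with its 154 bases and the chromophore codons, shifts the frame and leaves 87 codons before a stop. The loss of exon 3, with 164 bases, shifts it as well and leaves 126 codons. The loss of exons 2 and 3 together takes 318 bases, or 106 codons, and keeps the frame for 146 codons of the 252. The RNA list held neither a join between copies nor the exon-skipping joins given above, and whether copies with such a deletion are transcribed was not tested.

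Copies inside *gfp* were also joined to the copy in the vector at 11895. The join of intron 3 to that copy, from 8255 to 11907, had 319 reads in paired-end DNA and 388 in single-read DNA. These copies are the pair most alike, with 48 of 51 positions identical and 18 identical bases at the join. In paired-end DNA intron 1 was joined to it by 86 reads (7835 to 11907) and intron 2 by 34 (8079 to 11946). The copy at 8608 was joined to none of the others in either DNA list.

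Of these joins, 2 were also summarised by the study. The authors' deposited table gives 195 reads and 2.04% of a mean coverage of 9554.5 for 7835 to 8041, and 251 reads and 3.01% of 8346 for 8079 to 8295. These reads are fewer than in the paired-end list, which had 7.45 and 3.08 times as many. For intron 1 the reads of the single-read list and of the authors' deposited table were equal, and for introns 2 and 3 the list had 1.09 and 1.23 times as many. The sources used here do not say how reads were chosen for that table, and its percentages apply to its own reads.

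Inversions made up most of the paired-end members of *gfp* and fewer of the others, whose lists, unlike the paired-end one, held skips under 61 bp. Paired-end DNA had 45 among 49 *gfp* junctions, or 91.8% (80.4 to 97.7, exact binomial), single-read DNA 3 among 15, or 20.0% (4.33 to 48.1), and RNA 12 among 63, or 19.0% (10.2 to 30.9). This put paired-end DNA 71.8 points above single-read DNA, with an adjusted p of 3.0e-07 by a two-sided Fisher's exact test (adjusted over all 3 pairs), and 72.8 points above RNA, with an adjusted p of 4.7e-15 by the same exact test. Between single-read DNA and RNA the gap was 0.952 points (adjusted p of 1, exact test). With deletions limited to skips of 61 bp or more, a range that all lists cover, each library had 4 deletions. All inversions were kept whatever the bases between their edges, whose median was 41 in RNA and 170 in paired-end DNA. The inversions were then 45 of 49 in paired-end DNA, 3 of 7 in single-read DNA and 12 of 16 in RNA. Under this limit, chosen after seeing the data, the excess of 16.8 points over RNA did not pass the threshold (Fisher's exact test, adjusted p = 0.14). That of 49.0 points over single-read DNA did (Fisher's exact test, adjusted p = 0.016). The gap against RNA thus depends on whether short deletion-like skips are counted, and the same limit on inversions was not tried. The tests compare 1 library with 1 other and treat junctions as independent, although junctions with a common edge are not. Among junctions with a splice motif the RNA share was 12 of 20, and paired-end DNA stood 30.5 points above it (Fisher's exact test, adjusted p = 0.019). With junctions that have at least 1 edge in *gfp*, paired-end DNA stood 24.1 points above RNA (Fisher's exact test, adjusted p = 0.00058). It stood 33.4 points above single-read DNA (Fisher's exact test, adjusted p = 0.011). The paired-end share of inversions was then 54.5%, from 71 deletions and 85 inversions. Shares of inversions over the whole plasmid are not given here, so these shares cannot be called particular to *gfp*.

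One inversion dominated the paired-end reads. The join of 7854 in intron 1 and 8079, the last base of intron 2, had 2993 reads (2887 to 3102), or 39.9% of the inversion reads in *gfp*. It was followed by 8201 to 8496, from exon 3 to exon 4, with 577 reads, and 8100 to 8296, between the same exons, with 569. Then came 7835 to 8032 (392 reads) and 8032 to 8255 (303 reads), which join introns 1 and 2 and introns 2 and 3 with 8 identical bases each. The other 40 inversions had 2 to 290 reads. By the authors' deposited table the first 2 amounted to 9.07% and 4.98% of coverage, on 935 and 451 reads.

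The edges of paired-end inversions lay in introns more often than those of RNA inversions, in count. Of 90 paired-end edges 27 were in introns, or 30.0%, and 7 inversions had both edges in introns, with 4041 of 7505 reads. Of 24 RNA edges 1 was in an intron, or 4.17%, and 9 of 12 RNA inversions had both edges in the same exon. Spliced RNA lacks the introns, and this difference was not tested. A few edges recurred. Among 60 distinct paired-end edges, 8079 and 8201 were used by 5 inversions each and 7835 by 4, and 14 of the 45 inversions used one of these 3. These edges were picked after their counts were seen.

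RNA inversions joined closer bases than DNA inversions. The number of plasmid bases between the joined edges was 5 to 138 in RNA, with a median of 41, and 47 to 610 in paired-end DNA, with a median of 170, so the ranges overlap. Under 100 bases lay between the edges in 8 of 12 RNA inversions and in 6 of 45 paired-end ones. The most frequent RNA inversions were 8370 to 8405 in exon 4 (576 reads), 8201 to 8315 from exon 3 to exon 4 (557), 7979 to 7994 in exon 2 (520), 8381 to 8496 in exon 4 (270) and 8201 to 8207 in exon 3 (182). The last of these has 5 bases between its edges and 10 identical bases. Of the 12, 11 had aligned stretches that together exceeded 125 bases, whereas 30 of the 43 skips without a motif did not exceed it.

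**Figure D4:**
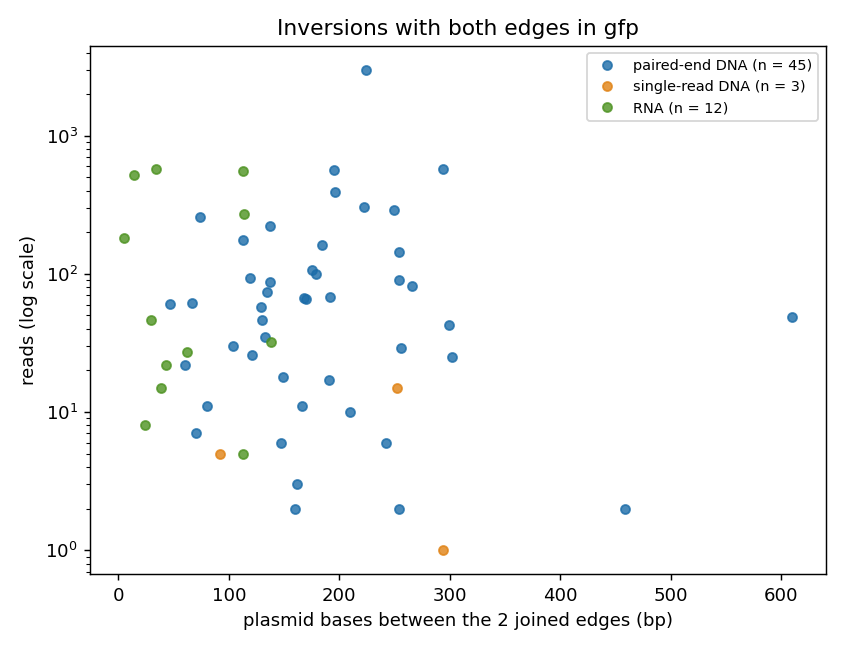
Each point is an inversion in *gfp*, with the plasmid bases between its edges in bp on the horizontal axis and its reads on a log scale on the vertical axis. RNA inversions stand at 5 to 138 bp and most paired-end ones at over 100 bp, with the join of 7854 and 8079 alone at the top with 2993 reads.

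Some inversions were found in more than 1 library. Single-read DNA had only 3 that could be shared, and the overlap of inversions over the whole plasmid is not given here. The join of 8201 and 8315 was in both paired-end DNA, with 176 reads, and RNA, with 557, and has 6 identical bases. The join of 8201 and 8496 had 577 paired-end reads and 1 single-read read. The other single-read inversions were 7880 to 8133, from exon 2 to exon 3, with 15 reads, and 7755 to 7848, from exon 1 to intron 1, with 5.

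Over all classes the DNA libraries shared 4 *gfp* junctions, 8.16% of the paired-end and 26.7% of the single-read members, of which 3 were the joins between introns. Single-read DNA and RNA shared 4 as well, 26.7% and 6.35%, namely the 3 introns and the skip from 7831 to 7883. Paired-end DNA and RNA shared 1, which is 2.04% and 1.59%. Without the overlap over the whole plasmid beside them, these shares cannot be called particular to *gfp*.

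Identical bases at the edges differed between the classes inside *gfp*. They averaged 11.8 ± 3.86 (SD over junctions, n = 4) at paired-end deletions, 3.22 ± 2.18 (n = 45) at paired-end inversions and 2.25 ± 3.05 (n = 12) at RNA inversions. RNA deletion-like junctions averaged 0.824 ± 1.03 (n = 51), and the most that any of them had was 4. Single-read deletions ranged from 0 to 14, the highest being joins between introns. Of the paired-end deletions, 3 were such joins too, and the rule for them makes identical bases likely. Of the paired-end inversions, 13 had 5 or more identical bases, and none had more than 8. With at least 1 edge in *gfp* the order of the paired-end classes turned, to 2.56 at 71 deletions and 3.29 at 85 inversions. Junctions of a library share its reads and depth, so these values describe the lists and were not tested.

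Splice letters at the ends differed by class as well. Of the 45 paired-end inversions, 24 had AT-AC ends, 14 GT-AG and 7 no motif, and of the 12 RNA inversions 8 had AT-AC, 2 GT-AG and 2 GC-AG. Of the 8 RNA deletion-like junctions with a motif, 6 had GT-AG and 2 AT-AC. The 3 introns are among the GT-AG ones. TopHat2 searches for junctions at these letters, although the 7 paired-end inversions without a motif were listed too. Whether inversions of *gfp* at other bases were all listed is not known.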

How the data were processed

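Per the labels and the track lines, the deposited lists are TopHat2 junctions on a reference of 24012 bases, the 12006 of pTG96 followed by their reverse complement. Each junction has a count of spanning reads, deposited without normalization. Counts were not scaled between libraries. The sources used here state no TopHat2 version or settings, no trimming and no number of mapped reads. The lists held 2045, 80 and 509 junctions with 147406, 10351 and 616560 reads (paired-end DNA, single-read DNA, RNA), and 923, 6 and 43 with an edge before the reference were left out. The authors' deposited table gives reads as counts, coverage at the edges as a signal and reads over coverage as a percent. Its positions are 1 lower than the edges used here, and these positions have no other unit than bases of the plasmid.

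Edges are 1-based plasmid positions, the last base before and the first after a skip, or the bases joined by an inversion. A junction and its mirror image were counted once, with the higher count. A read can be placed on both copies of the reference. Introns were GT-AG skips in *gfp* with at least 1000 RNA reads. Other copies of them were sought on pTG96 by length and by the first and last 6 bases. Identical bases are those over which a join can slide. Intervals are exact Poisson or Clopper-Pearson, and reads are not independent molecules. Shares of inversions were compared by Fisher's exact test with Benjamini-Hochberg adjustment over 3 pairs, at a threshold of 0.05. The reading of lists was tested on simulated data. Python 3.11.15, pandas 2.3.3 and SciPy 1.17.1 were used.

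The members and lists were chosen with earlier results of these data known. Named junctions were the introns, the 5 with most reads per library and class, those in more than 1 library, joins between intron copies, skips that use 1 splice site of an intron (up to 3 per intron), the moved skip with most reads per intron, and entries of the authors' deposited table. 5 alternatives were tried: motif junctions alone, summed mirror images, at least 10 reads, shifted listings counted once, and junctions with at least 1 edge in *gfp*. A further one, for the shares of inversions, kept deletions of 61 bp or more and all inversions, and was chosen after seeing the data. Plasmid sequence is described and not printed.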

Additional observations from a re-analysis of the deposited data

How the results depend on the processing

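Of 144 values recomputed, 107 stayed alike, 31 moved, 5 turned sign and 1 lost its call. The excess of inversions in paired-end DNA over RNA passed the threshold under the 5 alternatives chosen at the start (adjusted p 4.7e-15 to 0.019, Fisher's exact test). It did not with deletions limited to 61 bp or more and all inversions kept, chosen after seeing the data (16.8 points, Fisher's exact test, adjusted p 0.14, RNA share 75%). That over single-read DNA passed under all 6. The difference between single-read DNA and RNA, not called at first, turned to -26.7 points over motif junctions, -6.12 with at least 10 reads and -11.0 with shifted listings counted once. It was -9.34 with at least 1 edge in *gfp* and -32.1 with deletions limited to 61 bp or more (exact tests over all of these, adjusted p 0.18 to 1). The inversion share of RNA was 60% over motif junctions and 32.4% with shifted listings counted once. That of paired-end DNA was 54.5% with at least 1 edge in *gfp*.

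RNA deletion-like junctions fell to 8 over motif junctions and 25 with shifted listings counted once. Single-read deletions fell to 6 over motif junctions or with at least 10 reads. The limit of at least 10 reads also left 1 single-read inversion. With at least 1 edge in *gfp* there were 31 RNA inversions, 71 paired-end deletions with 2.56 identical bases on average, and 85 paired-end inversions with 3.29. Shared junctions became 3 for paired-end DNA and RNA with at least 1 edge in *gfp*. They became 2 for the DNA libraries with at least 10 reads, and 2 for single-read DNA and RNA with shifted listings counted once.

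With mirror images summed, introns 1 to 3 had 49199, 60854 and 66221 RNA reads and 170, 520 and 279 single-read DNA reads. The share of RNA reads at shifted sites, 7.89%, 9.14% and 1.53%, then became 4.28%, 4.80% and 0.849%. Over motif junctions, or with shifted listings counted once, it became 0.0117%, 0.0689% and 0.590%. The alternatives drop or join listings by construction, and no other cause was tested. No paired analysis was possible because each group has 1 library. Depth could not be weighed, since mapped reads were not given.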
